A study of Mus musculus with 26 samples.

Results

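A set of 7 genes taken to lie outside known gut programs was followed through mouse intestinal organoids given vehicle, arachidonic acid (AA) or prostaglandin E2 (PGE2): Mucl3, Tek, Il5ra, Ttyh1, Tmem40, Pbp2 and Upk3b. They are 7 of the 55385 gene identifiers in the count tables, and they were picked from these same libraries as large rises outside known gut programs, with levels thought to be graded from AA to PGE2. Their changes against vehicle and their AA-to-PGE2 ratios are therefore descriptions and carry no test. What was tested is how these levels and responses moved over time, in libraries that the choice had also seen.

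The organoids are small epithelial structures grown in Matrigel from crypts of C57BL/6 mice, in medium with EGF, Noggin, R-spondin, the Wnt-activating compound CHIR-99021, Y-27632, N-acetyl-L-cysteine, B27 and N2, which all groups share. Vehicle, AA at 25 µM and PGE2 at 50 nM were each measured at days 1 and 3 with 3 libraries a group, while day 6 has vehicle and AA alone, in 4 libraries each, which makes 26 libraries in 8 groups. The treatment protocol names PGE2 and the series' design text a dimethyl analogue, so "PGE2" stands for whichever was used, and the doses of AA and PGE2 differ. The labels do not say whether replicates came from separate mice or cultures, so p-values measure only the spread between these libraries, which may be technical. Libraries held 1.01e+07 to 1.46e+07 counts at days 1 and 3 and 1.61e+07 to 1.98e+07 at day 6, and levels are given as CPM, counts scaled to a common library size, where 1 read is worth 0.0506 to 0.0991 CPM. Day 6 stands in a table of its own, with 0.00305 to 0.266% of counts from mitochondrial rRNA against 6.74 to 10.3% at days 1 and 3, so a change of level from day 3 to day 6 cannot be told apart from a difference between the tables.

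AA is a polyunsaturated fatty acid that cyclooxygenases turn into prostaglandins, of which PGE2 acts on cell surface EP receptors, some of which raise cAMP. Most of the genes are best known from other tissues. Mucl3 encodes a mucin-like membrane protein, Tek the angiopoietin receptor Tie2 of blood vessel endothelium, and Il5ra the ligand-binding chain of the interleukin-5 receptor of eosinophils and B-1 cells. Ttyh1 encodes a tweety family membrane protein of neural tissue, Tmem40 a little-studied transmembrane protein, Pbp2 a phosphatidylethanolamine-binding protein of testis, and Upk3b a uroplakin of urothelium and mesothelium.

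Start regions of all 7 genes were matched by symbol in RefSeq's promoter windows (build GRCm38.p6, 250 bases before to 50 after each start). Because PGE2 receptors can signal through cAMP, the windows were searched on both strands for the cAMP response element TGACGTCA, its core TGACG, the AP-1 motif TGANTCA and the TEAD motif GGAATG. The element and its core overlap, since the element holds the core on each strand. The full element stood in the Mucl3 window, 47 bases before the start, and in 1.79% of all 32851 windows. AP-1 motifs stood in the Il5ra window, 99 bases before the start, and in the first of the 2 Tmem40 windows, 155 bases before it, and in 7.81% of all windows. The core also stood in the second Tmem40 window (20.8% of all windows), and the TEAD motif in those of Tmem40 and Upk3b (14.7% of all windows). The windows of Tek, Ttyh1 and Pbp2 held none of these letters. A match is a description of the sequence only. The 250 bases before the start are printed for the 3 genes with a full cAMP element or an AP-1 motif, 5′ to 3′ on the gene's strand, which is the minus strand for all 3, with that motif in capitals: Mucl3 at chr17:35643696-35643945, Il5ra at chr6:106749038-106749287 and Tmem40 at chr6:115762467-115762716.
Mucl3: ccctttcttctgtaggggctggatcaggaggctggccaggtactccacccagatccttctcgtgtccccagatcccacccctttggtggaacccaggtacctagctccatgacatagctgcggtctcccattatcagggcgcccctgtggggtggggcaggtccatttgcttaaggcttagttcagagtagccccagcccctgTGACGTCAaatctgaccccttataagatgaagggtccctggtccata
Il5ra: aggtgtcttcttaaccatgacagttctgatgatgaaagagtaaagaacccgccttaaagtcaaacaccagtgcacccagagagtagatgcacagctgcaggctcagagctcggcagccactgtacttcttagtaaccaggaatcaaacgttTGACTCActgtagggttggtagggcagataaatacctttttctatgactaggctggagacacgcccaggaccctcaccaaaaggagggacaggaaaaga
Tmem40: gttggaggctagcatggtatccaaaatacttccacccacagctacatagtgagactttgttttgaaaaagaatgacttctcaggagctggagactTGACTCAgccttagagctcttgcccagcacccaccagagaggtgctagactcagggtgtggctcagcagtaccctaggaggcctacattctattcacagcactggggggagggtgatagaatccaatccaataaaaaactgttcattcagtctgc

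Mucl3 (ENSMUSG00000073408.2) had the highest level of the 7 with PGE2 on both days, while with AA Il5ra was higher on both days. At day 1 its 3 libraries read 0.571, 0.615 and 0.547 CPM with vehicle, 5.59, 4.44 and 5.68 CPM with AA and 43.8, 43.5 and 43.0 CPM with PGE2. At day 3 they read 1.01, 0.177 and 0.750 CPM with vehicle, 8.22, 8.08 and 8.58 CPM with AA and 72.7, 73.2 and 81.2 CPM with PGE2. All 3 groups lay apart on both days, in the order vehicle, AA, PGE2. The level was 8.96-fold that of vehicle with AA at day 1 (log2 fold change 3.16 ± 0.24, SE) and 74.0-fold with PGE2 (6.21 ± 0.16), then 12.2-fold (3.61 ± 0.22) and 112-fold (6.80 ± 0.14) at day 3. Reads per library were 2 to 14 with vehicle and 417 to 1199 with PGE2, so the error of these folds comes mainly from the vehicle. Set per kilobase of exon (GENCODE M21), Mucl3 with PGE2 at day 3 stood at 29.0 CPM per kb, against 7.44 for Tek, 6.67 for Il5ra, 3.75 for Tmem40, 1.69 for Ttyh1, 1.22 for Pbp2 and 0.433 for Upk3b. The window of Mucl3 with its cAMP element is the first sequence printed above.

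Tek (ENSMUSG00000006386.15) differed from Mucl3 in its timing. With vehicle it read 0.500, 0.384 and 0.859 CPM at day 1 and 0.216, 0.177 and 0.0937 CPM at day 3. With AA it read 1.45, 1.43 and 1.51 CPM at day 1 and 5.46, 6.38 and 5.33 CPM at day 3. With PGE2 it read 9.68, 9.59 and 8.86 CPM at day 1 and 32.9, 35.2 and 37.1 CPM at day 3. The groups lay apart on both days, and while both treated groups were higher at day 3 than at day 1, every vehicle library was lower at day 3. Against vehicle the level was 2.51-fold with AA (1.33 ± 0.29) and 16.0-fold with PGE2 (4.00 ± 0.20) at day 1, and 32.1-fold (5.00 ± 0.29) and 198-fold (7.63 ± 0.20) at day 3. The vehicle libraries of day 3 held 1 to 3 Tek reads each.

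Il5ra (ENSMUSG00000005364.11) kept nearly the same shape on both days. At day 1 it read 0.857, 0.769 and 0.625 CPM with vehicle, 8.15, 8.05 and 7.63 CPM with AA and 16.0, 16.5 and 17.4 CPM with PGE2. At day 3 the readings were 1.23, 1.06 and 0.469 CPM with vehicle, 11.7, 10.1 and 12.8 CPM with AA and 24.6, 23.3 and 23.7 CPM with PGE2. All groups lay apart within each day. AA gave 10.4-fold (3.38 ± 0.20) and 12.2-fold (3.60 ± 0.18) the vehicle level at days 1 and 3, and PGE2 gave 21.8-fold (4.45 ± 0.17) and 24.9-fold (4.64 ± 0.16).

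Tmem40 (ENSMUSG00000059900.14) began graded and ended level between AA and PGE2. At day 1 it read 0.357, 0.384 and 0.781 CPM with vehicle, 5.73, 5.80 and 4.60 CPM with AA and 9.84, 9.49 and 12.3 CPM with PGE2. At day 3 it read 1.66, 1.33 and 1.59 CPM with vehicle, 5.75, 6.28 and 9.20 CPM with AA and 8.05, 8.53 and 7.52 CPM with PGE2. AA and PGE2 lay apart at day 1 and overlapped at day 3, where AA replicate 3 was above every PGE2 library. The folds over vehicle were 10.5 with AA (3.39 ± 0.28) and 20.6 with PGE2 (4.37 ± 0.25) at day 1, and 4.61 (2.20 ± 0.22) and 5.21 (2.38 ± 0.21) at day 3.

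Pbp2 (ENSMUSG00000047104.5) was the gene whose treated levels were lower at day 3 than at day 1. Its libraries at day 1 read 0.286, 0.307 and 0.312 CPM with vehicle, 3.45, 2.56 and 3.60 CPM with AA and 9.07, 8.97 and 8.28 CPM with PGE2. By day 3 they read 0.0721, 0.442 and 0.281 CPM with vehicle, 0.873, 0.997 and 1.16 CPM with AA and 1.56, 1.30 and 1.83 CPM with PGE2. The order vehicle, AA, PGE2 held without overlap on both days, at a lower level on the second. Folds over vehicle were 10.3 with AA (3.37 ± 0.31) and 28.2 with PGE2 (4.82 ± 0.27) at day 1, then 3.89 (1.96 ± 0.43) and 6.03 (2.59 ± 0.39) at day 3, where AA rested on 37 reads against 9 and ranged from 1.46 to 2.56 on the log2 scale without vehicle replicate 1 or 2. Pbp2 shares sequence with Pebp1, the abundant family member: their transcripts were 80.3% identical over 824 aligned bases, with a longest identical run of 21 bases. Pebp1 went the other way, from 129 ± 10.8 CPM with vehicle to 94.3 ± 2.01 CPM with PGE2 at day 1 (SD, n = 3 each).

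Ttyh1 (ENSMUSG00000030428.16) was high with PGE2 only. At day 1 it read 1.14, 0.461 and 0.391 CPM with vehicle, 0.967, 0.903 and 0.719 CPM with AA and 7.55, 6.15 and 8.53 CPM with PGE2. At day 3 it read 0.793, 1.15 and 0.937 CPM with vehicle, 0.728, 1.10 and 0.696 CPM with AA and 10.4, 10.5 and 11.4 CPM with PGE2. AA overlapped vehicle on both days, so for this gene the label of a grade from AA to PGE2 does not describe the data. PGE2 gave 10.9-fold (3.44 ± 0.25) and 11.3-fold (3.49 ± 0.22) the vehicle level, and AA 1.27-fold (0.35 ± 0.36) and 0.864-fold (-0.21 ± 0.36), with 95% intervals of the AA log2 change from -0.44 to 1.13 and from -0.99 to 0.57.

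Upk3b (ENSMUSG00000042985.7) went against the label. At day 1 the groups held 1 read with vehicle, 4 with AA and 9 with PGE2, a PGE2-to-vehicle ratio of 10.3 with a 95% counting interval of 1.43 to 453. At day 3 it read 4.54, 2.83 and 3.19 CPM with vehicle, 5.60, 6.48 and 5.95 CPM with AA and 0.904, 2.53 and 1.15 CPM with PGE2. Every AA library was above every vehicle library and every PGE2 library below, the reverse of a grade that ends at PGE2: the AA level was 1.68-fold (0.75 ± 0.25) and the PGE2 level 0.434-fold (-1.20 ± 0.29) that of vehicle, or -1.80 without PGE2 replicate 2. At day 6 it read 4.67 to 8.82 CPM with vehicle (median 5.53) and 9.71 to 18.1 CPM with AA (median 13.2), again without overlap (2.20-fold, 1.14 ± 0.21).

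**Figure D1:**
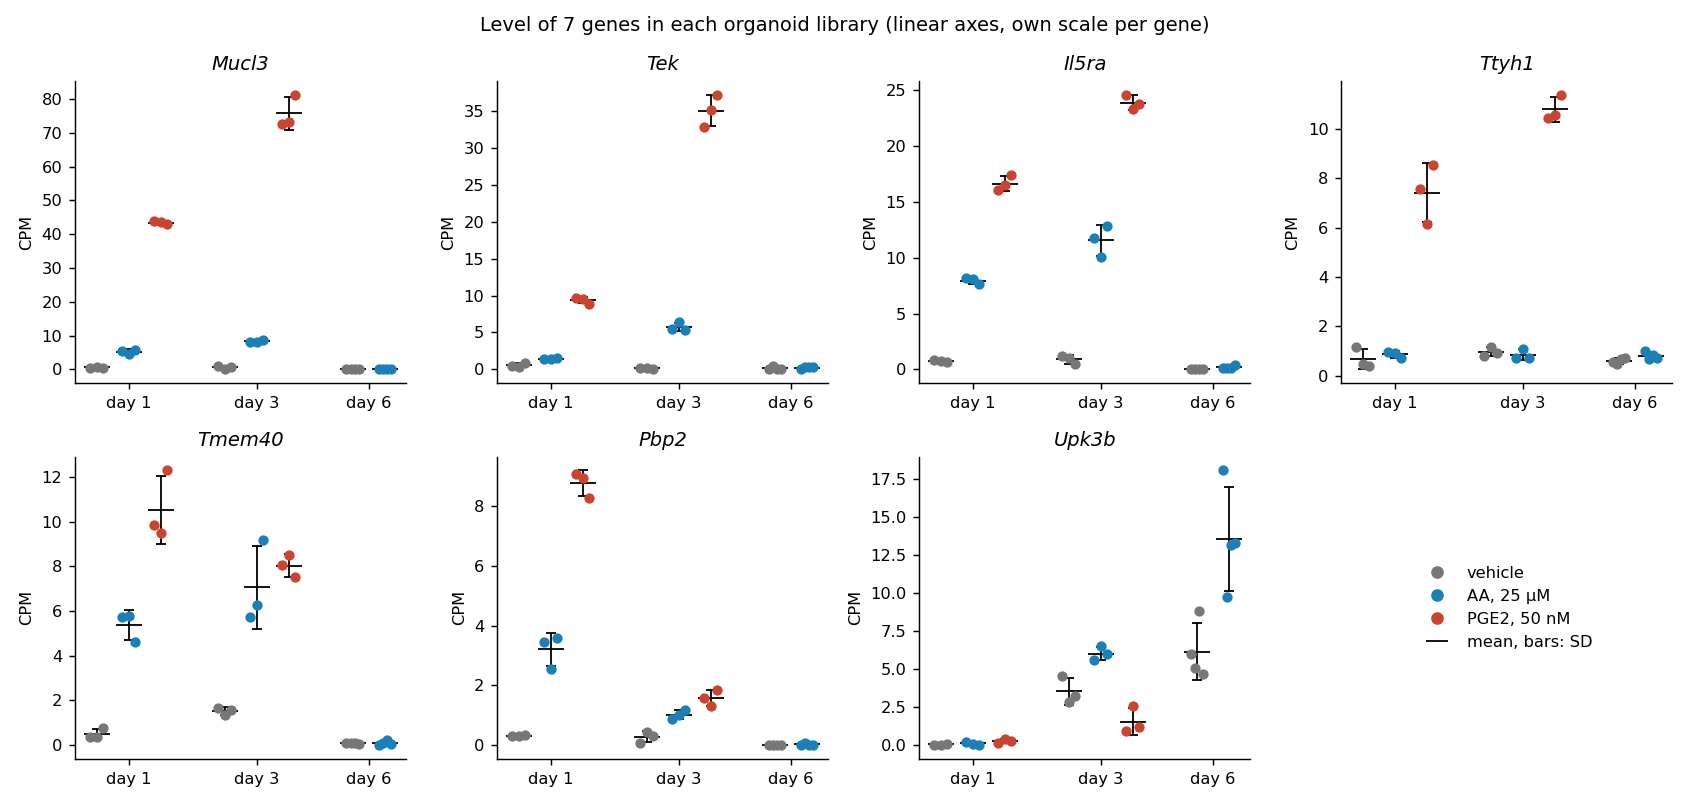
Level in CPM of each gene (vertical axis, linear, own scale) in every library by day, for vehicle (grey), AA (blue) and PGE2 (red), with the mean and SD. Mucl3 reaches 72.7 to 81.2 CPM with PGE2 at day 3, Ttyh1 is high with PGE2 alone, and Upk3b at day 3 is lowest with PGE2 (0.904 to 2.53 CPM).

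Of the 7 genes, 4 had a log2 fold change of at least 2 with AA at day 1 and 4 at day 3, and 7 and 6 with PGE2, where 1.49%, 0.781%, 3.46% and 3.14% of the 14850 genes tested did. The choice of genes used these contrasts, and nothing is read from the counts. The members' median log2 fold change was 3.16 and 2.20 with AA at days 1 and 3 and 4.37 and 3.49 with PGE2, beside medians of -0.03, -0.03, -0.02 and -0.04 over all genes tested. Over the 18 libraries of days 1 and 3, log2 CPM of Mucl3 and Tek had a Pearson r of 0.95, Il5ra and Tmem40 of 0.93, and Upk3b had r between -0.32 and 0.26 with each of the other genes. These r describe libraries that share their groups.

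**Figure D2:**
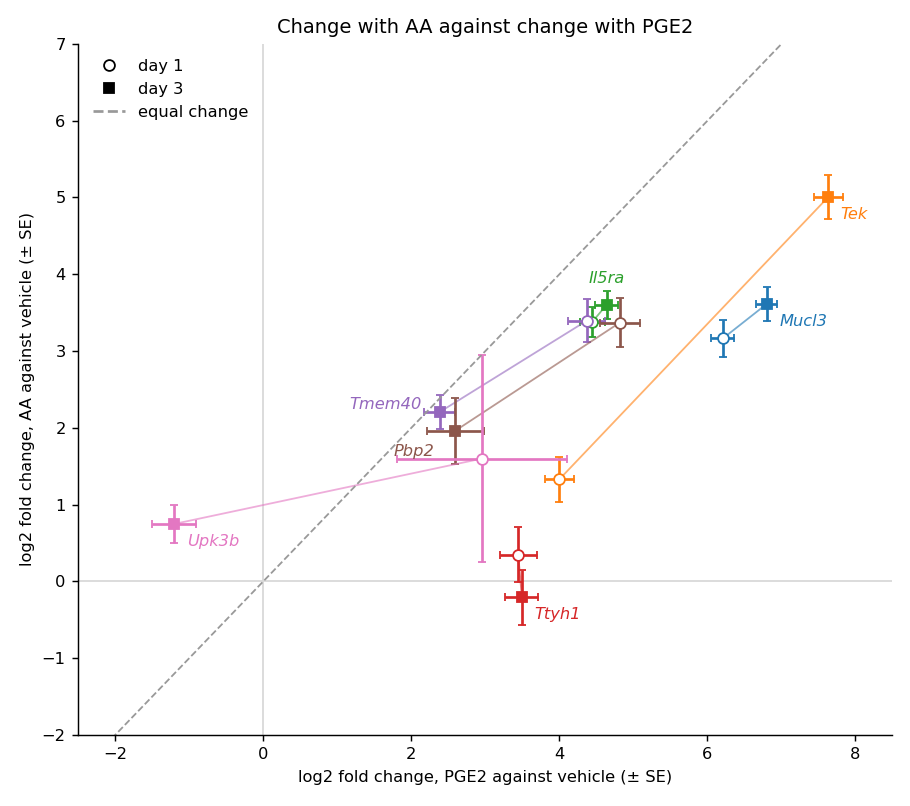
Log2 fold change against vehicle with PGE2 (horizontal axis) and AA (vertical axis), ± SE, at day 1 (open circles) and day 3 (filled squares), joined per gene, with a dashed line of equal change. Tek moves up and right from day 1 to day 3, Tmem40 and Pbp2 move down toward the line, and Upk3b crosses to the left of 0.

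The AA-to-PGE2 ratio sorted the genes into steep and shallow grades. The rise with AA over vehicle, in CPM, was 10.9% of the rise with PGE2 at day 1 and 10.2% at day 3 for Mucl3 (9.91 to 11.8% without any 1 library) and 10.03% and 15.9% for Tek (9.01 to 16.5%). It was 45.3% and 46.3% for Il5ra (43.5 to 49.5%). For Tmem40 the share was 48.5% at day 1 (46.1 to 53.2%) and 85.3% at day 3 (69.0 to 95.5%), and for Pbp2 34.2% (31.9 to 38.0%) and 57.4% (51.6 to 63.9%). Ttyh1 stood at 2.94% and -1.22%, near 0. Upk3b has no such share, since its groups held 1, 4 and 9 reads at day 1 and it was lower with PGE2 than with vehicle at day 3.

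**Figure D3:**
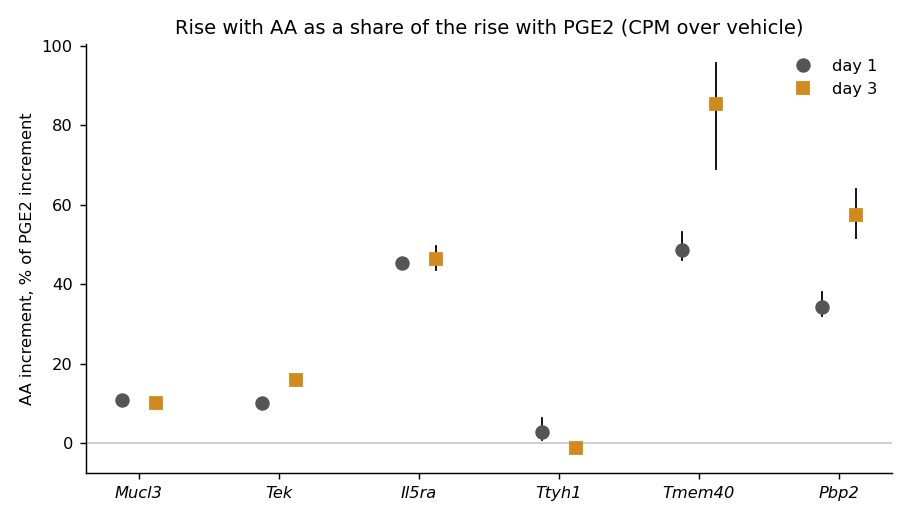
Increase with AA over vehicle as a percentage of the increase with PGE2, from group mean CPM, at day 1 (circles) and day 3 (squares); bars give the range when each library is left out in turn. Mucl3 and Tek stay between 9.01 and 16.5%, Il5ra near 45.3 and 46.3%, and Tek, Tmem40 and Pbp2 are higher at day 3.

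Whether the grade itself changed was tested as the AA minus PGE2 difference at day 3 minus day 1 on the log2 scale, in which the vehicle drops out. By edgeR with Benjamini-Hochberg adjustment over all genes, 2 of the 7 were called, both toward AA, where 9.92% of genes tested were called. Tmem40 changed by 0.80 ± 0.22 (adjusted p = 0.0186) and Upk3b by 3.30 ± 0.96 (adjusted p = 0.0241). For Upk3b the day 1 side rests on 4 reads with AA and 9 with PGE2. The choice of genes used the grade in these same libraries, so the calls are no independent evidence. Both calls are marginal: that of Tmem40 was lost without AA or PGE2 replicate 3 of day 1 or of day 3 (0.57 to 0.75, adjusted p 0.0536 to 0.0975), and that of Upk3b without replicate 2 or 3 of AA or of PGE2 at day 1 (2.76 to 3.33, adjusted p 0.0575 to 0.128). Pbp2 was not called (0.81 ± 0.34, adjusted p = 0.142). The 95% intervals of the change ran from -0.48 to 0.19 for Mucl3, from -0.36 to 0.45 for Tek, from -0.29 to 0.34 for Il5ra and from -1.46 to 0.24 for Ttyh1.

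Untreated organoids moved too. Between days 1 and 3 of vehicle 3 of the 7 genes were called by edgeR, where 40.3% of genes tested were. Upk3b rose from 1 read to 129 reads over 3 libraries each, a count ratio of 143 with a 95% counting interval of 25.3 to 5702. Its fitted log2 change was the highest of all 14850 genes (6.68 ± 0.62, adjusted p = 1.8e-09). With 1, 4 and 9 reads in the groups of day 1, Upk3b passed the low-count filter through day 3, the high side of this contrast. Its rank and call are therefore no independent evidence. Tmem40 rose 3.01-fold (1.59 ± 0.37, adjusted p = 0.00103) and Tek fell by 1.73 ± 0.49 on the log2 scale (adjusted p = 0.00978), on 23 against 6 reads, which no longer passed once vehicle replicate 3 of day 1 was left out (-1.36, adjusted p = 0.106). Tek, Mucl3 and Pbp2 passed the low-count filter through the treated groups where they are high, and with the vehicle libraries alone they could not be tested. Mucl3, Il5ra, Ttyh1 and Pbp2 were not called, with Ttyh1 at 0.48 ± 0.37 and, without vehicle replicate 1 of day 1, at 1.13 (adjusted p = 0.0427).

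The responses of Tek to both agents grew over the same days. Its response, the log2 change against the vehicle of the same day, was higher at day 3 than at day 1 by 3.68 ± 0.52 for AA (edgeR adjusted p = 5.2e-06) and by 3.63 ± 0.49 for PGE2 (adjusted p = 1.2e-06). Both differences include the lower level of Tek with vehicle at day 3, which rests on 6 reads and stands in each. Tek was chosen for its rises in these libraries, which ranked 4 with AA and 3 with PGE2 at day 3, against 595 and 46 at day 1. A larger response at day 3 was favoured by the choice, so these calls are no independent evidence. The same limit of choice holds for the calls below. Tmem40 went the other way from Tek, by -1.99 ± 0.40 for PGE2 (adjusted p = 3.4e-04) and -1.19 ± 0.41 for AA (adjusted p = 0.0427). The AA call was lost when any of 9 libraries was left out: vehicle replicate 1 or 2 or AA replicate 1 or 2 of day 1, any vehicle library of day 3, or AA replicate 1 or 2 of day 3 (-0.98 to -1.27, adjusted p 0.0503 to 0.140). The response to PGE2 also fell for Pbp2, by 2.22 ± 0.65 (adjusted p = 0.0108), and for Upk3b, by 4.16 ± 1.17 (adjusted p = 0.00879). Without vehicle replicate 2 of day 3 Pbp2 stood at -1.63 (adjusted p = 0.226), and Upk3b rests on the 1 and 9 reads of day 1. In all, 2 of the 7 responses to AA and 4 of the 7 to PGE2 were called, where 18% and 24.2% of genes tested were. Mucl3 and Il5ra were called in neither, with 95% intervals from -0.50 to 1.40 and -0.55 to 0.99 for AA and from -0.33 to 1.51 and -0.57 to 0.95 for PGE2.

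**Figure D4:**
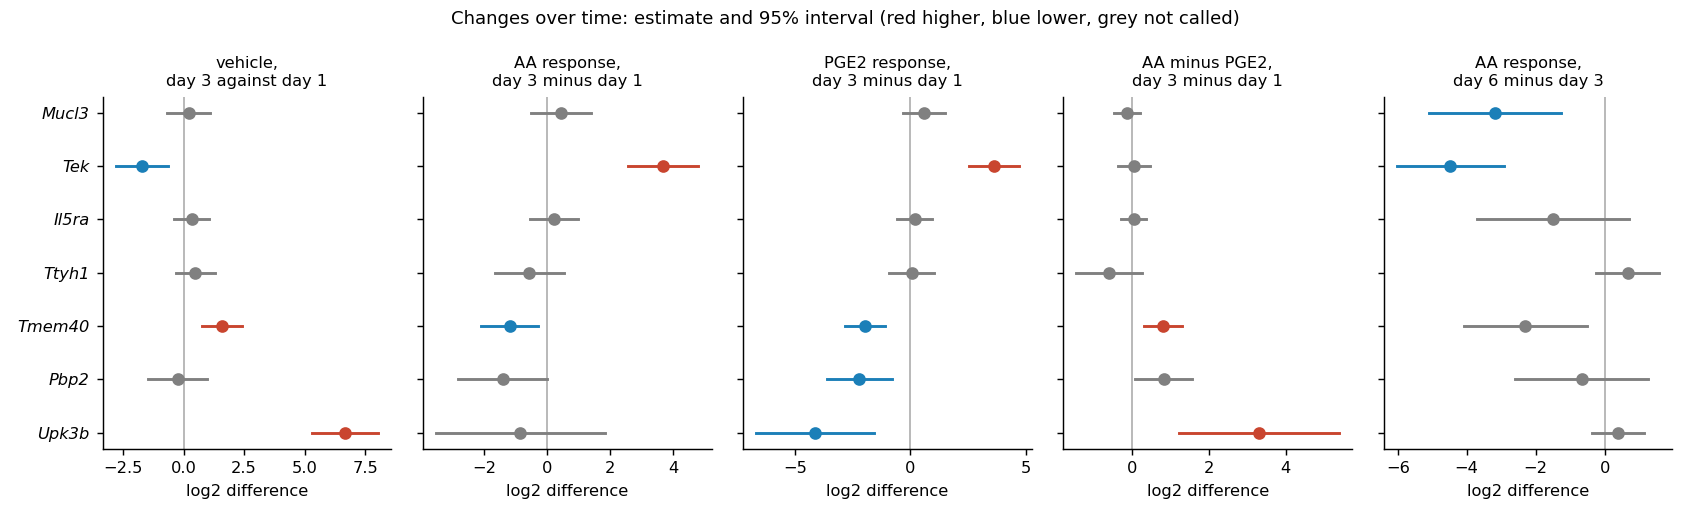
Estimate and 95% interval (horizontal axis, log2 scale, own range per panel) of 5 tested changes over time for each gene, red where higher, blue where lower and grey where not called by edgeR. Tek shows the fall with vehicle and the larger responses at day 3, and a lower AA response at day 6, where day and table cannot be told apart.

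Only Ttyh1 and Upk3b passed the low-count filter at day 6. Mucl3 held 0 to 4 reads per library with vehicle and 1 to 4 with AA, Tek 1 to 8 and 2 to 6, Tmem40 1 to 2 and 0 to 4, and Pbp2 0 in each vehicle library and 1 in all with AA. In these 4 genes vehicle and AA overlapped. Il5ra was the exception among the sparse genes, with 0 to 1 reads per vehicle library and 3 to 7 per AA library, 3 reads against 16 (ratio 5.04, 95% counting interval 1.44 to 27.0). Ttyh1 read 0.460 to 0.704 CPM with vehicle and 0.671 to 1.01 CPM with AA, with overlap (log2 fold change 0.47 ± 0.25). Across all genes tested at day 6, 30.7% were called between AA and vehicle.

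The change in the response to AA was tested as that at day 6 minus that at day 3. In this fit of all 26 libraries 19.1% of genes were called. A difference in response between the tables stays in this contrast, so day and table cannot be told apart. By edgeR 2 of the 7 were called, Tek, lower by 4.47 ± 0.74 (adjusted p = 4.7e-05), and Mucl3, lower by 3.17 ± 0.91 (adjusted p = 0.0137). Both genes failed the filter at day 6 and entered this fit through the treated groups of days 1 and 3. They were chosen for the AA rise that the contrast subtracts, so a lower response at day 6 was favoured by the choice and the calls are no independent evidence. Without vehicle replicate 1 of day 6, which held 4 of the group's 6 Mucl3 reads, Mucl3 stood at -2.18 (adjusted p = 0.301). Tmem40 was at -2.30 ± 0.85 (adjusted p = 0.0547) and was called without AA replicate 1 of day 3 (-2.44, adjusted p = 0.0388) or AA replicate 3 of day 6 (-3.04, adjusted p = 0.0206). Il5ra (-1.51 ± 1.05), Pbp2 (-0.67 ± 0.92), Ttyh1 (0.67 ± 0.44) and Upk3b (0.38 ± 0.36) were not called.

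Relatives and partners of the genes were taken from lists that hold none of the 7. Lists of relatives, partners and cell markers together named 103 genes, of which 39 were tested at days 1 and 3. Of these 39, 14 rose and 10 fell with AA at day 1 and 14 rose and 9 fell at day 3, beside 41.7% and 41.3% of all genes called. With PGE2 16 rose and 13 fell at day 1 and 21 rose and 10 fell at day 3, beside 55.9% and 58.9% of all genes. Between AA and PGE2, 5 were higher with AA and 11 lower at day 1, and 8 and 15 at day 3, beside 27.7% and 38.5% of all genes. At day 6, 10 of 38 rose and 7 fell with AA, beside 30.7% of all genes called.

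In the angiopoietin and Tie receptor list, 3 of 5 tested genes rose and 2 fell with each agent on each of days 1 and 3 (median log2 fold change 1.36 to 2.16, beside -0.04 to -0.02 over all genes). In these contrasts 41.3 to 58.9% of all genes were called. Tie1, the sister receptor of Tek, rose from 1 read in the 3 vehicle libraries of day 3 to 26 with AA and 61 with PGE2 (0.0240, 0.689 and 1.50 CPM; edgeR adjusted p = 8.2e-05 and 6.6e-08). Ptprb, the endothelial phosphatase that acts on Tek, rose from 0.880 ± 0.194 to 2.35 ± 0.778 CPM with AA and 4.16 ± 0.566 CPM with PGE2 at day 3 (SD, n = 3 each). Dok2, a docking protein that binds Tek, rose by 3.88 ± 0.16 on the log2 scale with PGE2 at day 1 and 2.16 ± 0.20 at day 3. The ligand Angpt2 fell by 0.97 and 1.48 with AA and by 1.22 and 1.61 with PGE2, and the adaptor Grb7 by 0.40 to 0.79. Angpt1, the activating ligand, was at 0 counts in 5 of the 6 groups of days 1 and 3, and Angpt4 in all 6.

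In the interleukin-5 receptor list, Csf2rb, the shared signalling chain that pairs with Il5ra, was at 0 counts in every group. So were Csf2rb2 and the cytokine Il3 of the same list. Of 8 tested genes, 1 rose and 1 fell with AA at day 1, 2 and 2 at day 3, and 3 and 2 with PGE2 on each day. Of all genes, 41.7% and 41.3% were called with AA and 55.9% and 58.9% with PGE2 at days 1 and 3. Cish, a feedback inhibitor induced by STAT5, rose by 1.48 ± 0.19 with PGE2 at day 1 and 0.80 ± 0.18 at day 3, while Socs2, of the same family, fell by 1.20 ± 0.09 and 0.60 ± 0.08.

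Among uroplakins, Upk1b, the tetraspanin partner of Upk3 proteins, rose with AA (1.22 ± 0.18 and 1.84 ± 0.17 at days 1 and 3) and with PGE2 (2.06 ± 0.17 and 2.51 ± 0.16), a direction opposite to that of Upk3b with PGE2 at day 3. Upk3bl, the neighbour of Upk3b in the gene order, rose with PGE2 from 3 to 43 reads at day 1 and from 6 to 40 at day 3. The tweety gene Ttyh3 fell by 1.76 ± 0.08 and 2.01 ± 0.07 with PGE2 while Ttyh1 was high. Pebp1 fell in all 4 contrasts, by 0.28 and 0.18 with AA and by 0.45 and 0.59 with PGE2. Of transmembrane mucins, 1 of 4 tested rose with AA on each day and 2 and 3 with PGE2, beside 41.3 to 58.9% of all genes called. Muc3 led at 3.45 ± 0.18 with PGE2 at day 3, a value that is uncertain where reads could be shared with Muc3a.

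**Figure D5:**
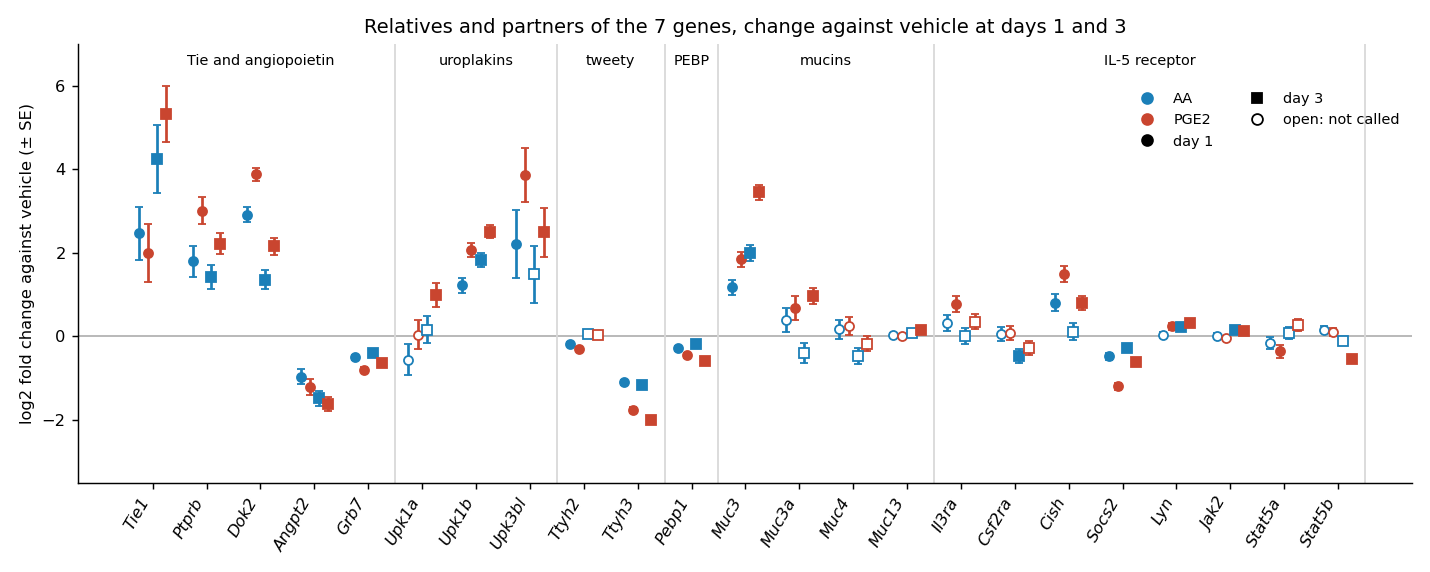
Log2 fold change against vehicle ± SE of tested relatives and partners, for AA (blue) and PGE2 (red) at day 1 (circles) and day 3 (squares), filled where called by edgeR. Tie1, Ptprb, Dok2, Upk1b and Muc3 lie above 0 and Angpt2, Grb7, Ttyh3 and Pebp1 below 0 in all 4 contrasts.

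Markers of the cells that usually express these genes were summed in each library. In bulk RNA, fewer cells of a type and less RNA per cell cannot be told apart. Of 10 endothelial markers Cldn5 was at 0 counts in every group and Kdr in all but PGE2 at day 3, and their summed level was 7.61 to 9.30 CPM with vehicle, 5.47 to 6.42 with AA and 4.59 to 5.87 with PGE2 at day 1, most of it Esam. At day 3 the sums were 9.84 to 11.7, 6.18 to 7.96 and 6.16 to 7.22 CPM, so AA and PGE2 overlapped. The lower sums with treatment follow Esam, at 9.24 ± 0.815 CPM with vehicle and 3.51 ± 0.348 CPM with PGE2 at day 3 (SD, n = 3 each). Other members were higher with PGE2 at day 3: Tie1, which the list shares with the one above, and Cdh5, with 6 reads against 0. The part of this list in the values of Tek was not tested. Of 9 eosinophil and B cell markers Epx, Prg2 and Ccr3 were at 0 counts in every group, with sums of 0.231 to 0.571 CPM with vehicle, 0.345 to 0.576 with AA and 0.457 to 0.753 with PGE2 at day 1. At day 3 the sums were 0.288 to 0.656, 0.728 to 1.10 and 0.677 to 1.40 CPM, and their part in the values of Il5ra was not tested. Of 9 male germ cell markers Prm2, Tnp1 and Tnp2 were at 0 in every group, and the sum was at most 0.739 CPM in any library. The 9 glial and neural markers summed to 13.6 to 15.1 CPM with vehicle, 6.62 to 7.94 with AA and 2.93 to 3.34 with PGE2 at day 1, most of it Slc1a3 with vehicle (11.2 ± 0.766 CPM, SD, n = 3). S100b of the same list rose with PGE2 at day 3, from 0.181 ± 0.156 to 0.789 ± 0.0989 CPM (edgeR adjusted p = 0.0018).

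Of 6 megakaryocyte and platelet markers Itga2b made up most of the sum. At day 1 this was 0.307 to 0.859 CPM with vehicle, 1.13 to 1.86 with AA and 1.04 to 1.59 with PGE2. At day 3 it was 1.12 to 1.73, 1.20 to 2.55 and 3.12 to 3.25 CPM, so AA overlapped PGE2 at day 1 and vehicle at day 3. Of 8 mesothelial markers Calb2 was at 0 in every group and Wt1 in each group of day 1, where 6 of the 8 were under 1 CPM. Nearly all of the sum was Msln, the gene of mesothelin. It stood at 87.0 to 94.3 CPM with vehicle, 441 to 476 with AA and 884 to 927 with PGE2 at day 1. The few Upk3b reads of that day had the same order. At day 3 the sums were 105 to 113, 436 to 489 and 982 to 1027 CPM, where Upk3b was lowest with PGE2. In the separate table of day 6 they were lower, at 4.49 to 9.41 CPM with vehicle and 12.8 to 29.0 with AA. Upk3b means were higher there than on the earlier days, at 6.14 and 13.5 CPM. The 6 fibroblast markers summed to at most 1.14 CPM. The label of an epithelial culture held: 8 of 8 epithelial markers were present in every group, with sums of 6844 to 7708 CPM with vehicle, 10441 to 10836 with AA and 13038 to 13699 with PGE2 at day 1 and 5515 to 6092, 7903 to 9082 and 10151 to 10420 at day 3. This sum moved in the same order as Mucl3, Tek, Il5ra and Pbp2, and its part in their values was not tested. The largest member of the sum at day 1 was Krt8, at 2170 CPM with vehicle and 4570 CPM with PGE2. Not all 8 markers moved that way: with AA 5 rose and 1 fell at day 1, and 5 and 0 at day 3. With PGE2 5 rose and 2 fell at day 1, and 6 and 0 at day 3. Of all genes, 41.7% and 41.3% were called with AA and 55.9% and 58.9% with PGE2.

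Neighbouring genes were tested to see whether the regions moved as a whole. Of the 28 nearest tested genes, 2 on each side of each of the 7, 6 rose and 9 fell with AA at day 1, 5 and 6 at day 3, 9 and 9 with PGE2 at day 1 and 6 and 6 at day 3. Over all genes 41.7%, 41.3%, 55.9% and 58.9% were called in these 4 contrasts. The share of neighbours called was above that of all genes at day 1 with both agents and below it at day 3. Whether these shares differ was not tested. Emp1, an epithelial membrane protein gene beside Pbp2, rose with PGE2 from 134 ± 3.59 to 714 ± 6.94 CPM at day 1 and from 84.6 ± 7.26 to 331 ± 8.87 CPM at day 3 (SD, n = 3 each). Leng9, beside Ttyh1, rose with both agents, by 0.65 ± 0.14 with AA and 1.52 ± 0.13 with PGE2 at day 1. Fam234b, on the other side of Pbp2, fell on both days (log2 fold change -0.78 and -0.93 with AA, -1.83 and -1.42 with PGE2). Lrrc19, beside Tek, fell with PGE2 at day 1 (-1.35) and rose at day 3 (0.70). Sfta2 lies over Mucl3 on the other strand in GENCODE M21 and rose with PGE2 by 1.78 ± 0.46 and 1.44 ± 0.43 at days 1 and 3, on 40 and 50 reads against 1506 and 3097 for Mucl3. The library kit keeps strand, but how the counting treated strand is unknown here, so reads of the pair, and of Ttyh1 and Pbp2 and the RNAs annotated antisense to them, may not be fully told apart. Those antisense RNAs held 0 to 17 reads per group. Gm27853, annotated within Tmem40 on its own strand, held 0 to 9.

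Likeness was measured as Pearson r of log2 CPM over the 18 libraries of days 1 and 3, which share their groups. The genes most like the mean of the 7 standardised profiles were Cav2, a caveolin (r = 0.99), Npnt, a matrix protein (0.99), Arhgap27 (0.99), Ctsl, cathepsin L (0.99), and Slc35f5 (0.99), of 11442 genes compared. Cav2 rose from 2.16 ± 0.0235 to 6.97 ± 0.576 CPM with AA and 16.5 ± 0.339 CPM with PGE2 at day 1 (SD, n = 3 each). Mucl3 was most like Plac8 (0.99) and Il33, an alarmin cytokine (0.99), which stood at 2.99, 18.1 and 100.7 CPM with vehicle, AA and PGE2 at day 1. For Tek they were Phgr1 (0.98) and Mcpt2, a mast cell protease (0.98), whose log2 change with PGE2 was 2.35 at day 1 and 5.53 at day 3. Il5ra was most like Capg, an actin-capping protein (0.99), and Col4a2, a basement membrane collagen (0.98), and Ttyh1 like Sytl2 (0.96) and Tnfrsf22 (0.96). For Tmem40 they were Ly6a, the surface antigen Sca-1 (0.99), and Capn5 (0.98), for Pbp2 Stn1 (0.98) and Ajuba (0.98), and for Upk3b Ak4, an adenylate kinase (0.98), and P4ha1, a collagen prolyl hydroxylase (0.97).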

How the data were processed

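Raw counts of reads per gene were deposited by the authors in 2 tables, one for days 1 and 3 and one for day 6; they are whole numbers with a different total in each library. The submitters' processing notes list STAR, cutadapt, limma and DESeq2 and give no role for any; the only build they list is the human GRCh38.p6. The identifiers are mouse: 54487 of 55385 match GENCODE M21 exactly, and 55144 (99.6%) have a symbol. All 26 columns were matched to samples by name.

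The counts were fitted with edgeR 4.0.16 in R 4.3.3 (filterByExpr, TMM, robust quasi-likelihood, 1 mean per group): days 1 and 3 (14850 genes, residual df 12), day 6 (14663 genes, df 6) and all 26 libraries jointly (15504 genes, df 18). Benjamini-Hochberg adjustment ran over all genes of a fit, with a threshold of 0.05, and "rose", "fell" and "called" mean that it was passed. Log2 fold changes use a prior count of 0.125, likeness log2 CPM a prior count of 2. CPM is TMM-scaled. Intervals on counts are exact and cover counting error only.

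The 7 genes and all gene lists were chosen with earlier results of these data known. Named beyond them are called list genes of at least 2-fold change, the gene of smallest p per list, Pebp1, the 2 nearest tested neighbours on each side, and the genes of highest r: 5 to the mean profile and 2 to each gene. Alternatives were other scalings and filters, DESeq2 1.42.0, fewer groups, a replicate block and each library left out.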

Additional observations from a re-analysis of the deposited data

Results flagged for a closer look

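At day 6, 3 values, in groups of 4, lay far from the rest of their group: the highest vehicle library of Tek (0.409 CPM), the highest AA library of Il5ra (0.366 CPM) and the highest AA library of Pbp2 (0.0516 CPM). All 3 rest on 8 reads or fewer, and that of Pbp2 on 1 read. The usual chance rate of about 1 in 20 groups does not hold at such low counts, where 1 read can set the flag.

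Responses that differed between days by the edgeR test were those of Tek to AA (3.68) and PGE2 (3.63) at day 3 minus day 1, of Tmem40 to AA (-1.19) and PGE2 (-1.99), and of Pbp2 (-2.22) and Upk3b (-4.16) to PGE2. The AA minus PGE2 difference changed between the days for Tmem40 (0.80) and Upk3b (3.30). From day 3 to day 6 the AA response differed for Mucl3 (-3.17) and Tek (-4.47). The choice of genes had seen these libraries, so the calls are no independent evidence.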

How the results depend on the processing

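Counts of the 7 genes called were 3 (vehicle over time), 2 (AA response, day 3 minus day 1), 4 (PGE2 response), 2 (AA minus PGE2) and 2 (AA response, day 6 minus day 3). With a replicate block they were 3, 2, 4, 2 and 2, and it changed no call. Same-numbered libraries had correlated deviations in 3 of 25 pairs (r over 0.1; range -0.083 to 0.137), so the numbers were not taken as pairs. With only the groups of each contrast the AA response gave 1, Tmem40 being lost (-1.21, adjusted p = 0.0581), and Tek, Mucl3 and Pbp2 could not be tested with vehicle. DESeq2 added Tmem40 at day 6 minus day 3 (-2.30, adjusted p = 0.0323). Without any 1 library the counts ranged from 2 to 4, 1 to 2, 3 to 4, 0 to 2 and 1 to 3. The median log2 fold change ranged from 3.10 to 3.27 and 1.96 to 2.56 with AA at days 1 and 3, 4.16 to 4.78 and 3.33 to 3.64 with PGE2, -2.53 to -1.31 and -1.08 to -0.95 for AA against PGE2, and 0.66 to 0.95 at day 6 (2 genes).

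Changes of sign arose in uncalled values. With total counts only, Tek (-0.061) and Il5ra (-0.077) reversed in the AA minus PGE2 difference. Leaving out 1 library reversed Il5ra there without PGE2 replicate 3 of day 1 (-0.0038) or AA replicate 3 of day 3 (-0.036; range to 0.11), and Tek without AA replicate 2 of day 3 (-0.026; range to 0.11). In the PGE2 response Ttyh1 reversed without vehicle replicate 1 of day 1 (-0.60), PGE2 replicate 2 of day 1 (-0.09) or vehicle replicate 1 of day 3 (-0.11; range to 0.31), and Il5ra without vehicle replicate 3 of day 3 (-0.11; range to 0.46). In the AA response Il5ra reversed without that library (-0.062; range to 0.50), and Upk3b without AA replicate 1 of day 1 (0.33; range from -2.69). With vehicle, Mucl3 (-0.34; range to 0.62) and Pbp2 (0.26; range from -0.85) reversed without replicate 1 of day 3. The cause was not tested. Total counts moved the split of all called genes from 2943 higher and 3039 lower to 3726 and 2042 with vehicle over time, from 1487 and 1181 to 986 and 1410 in the AA response, from 1876 and 1716 to 2221 and 1277 in the PGE2 response, from 770 and 703 to 314 and 1331 in the AA minus PGE2 difference and from 1362 and 1607 to 1747 and 1020 at day 6 minus day 3. With AA at day 3 it moved from 3143 and 2986 to 2459 and 3903, with PGE2 at day 1 from 4015 and 4291 to 3378 and 5175, and between AA and PGE2 from 1671 and 2448 to 2570 and 1746 at day 1 and from 2695 and 3016 to 2095 and 3373 at day 3. It shifted the median of all genes to 0.10 with vehicle over time and -0.11 in the AA minus PGE2 difference. Of the neighbour counts, 56 calls in all became 57 and 58 under the other scalings, which were chosen after seeing the data. Means under 1 CPM rest on few reads: all but Upk3b at day 6, Upk3b at day 1, Ttyh1 with AA on days 1 and 3, and the vehicle of Mucl3, Tek, Il5ra, Ttyh1 and Pbp2 on days 1 and 3 and of Tmem40 at day 1, against which the folds are taken.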
